A study of Zea mays with 6 samples.

Results

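The genes described here are 6 maize genes of cuticular wax synthesis, ZmCER8, ELO1, ZmCER2, ZmCER1, ZmCER3 and ZmCER4, out of 39283 genes in the expression table. They were chosen by gene identifier, and the names are those of the study, which shows these identifiers among wax genes that differed between the groups compared here. A difference in each gene was therefore part of how it was picked, and the directions below are not independent evidence. RNA was taken from coleoptile tips, the ends of the sheath around the young leaves of a grass seedling, in 2 groups of 3 samples. One group was labelled fdl1-Mu, a transposon insertion in FUSED LEAVES1 (FDL1), which encodes an R2R3 MYB transcription factor also called ZmMYB94. The other was labelled wild type. Both were of the W22 background and were grown at 28°C in a growth chamber, and the tips measured 3 to 4 mm. According to the study's methods, tips were collected on the third day after germination and several were pooled for each sample. The methods speak of homozygotes and heterozygotes for the insertion without saying which group held the heterozygotes. The labels add that tips of normal appearance were taken for the fdl1 samples. No second allele of the gene was profiled.

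Cuticular waxes are made in the epidermis from fatty acids. An acyl-CoA synthetase activates the fatty acid, and elongation enzymes of the endoplasmic reticulum then lengthen it by repeated cycles that begin with a condensing step. The very-long-chain products enter either the alkane branch, in which they become aldehydes and alkanes, or the alcohol branch, in which they are reduced to primary alcohols that can be built into wax esters. CER genes take their name from the eceriferum mutants of Arabidopsis, whose stems lack the normal wax bloom. In Arabidopsis, CER8 is the long-chain acyl-CoA synthetase LACS1, CER2 is a BAHD-type protein needed for the last rounds of elongation, CER1 and CER3 act together in alkane formation, and CER4 is an alcohol-forming fatty acyl-CoA reductase. ELO1 belongs to the ELO (GNS1/SUR4) family, known in yeast as condensing enzymes of fatty acid elongation. The maize roles are taken from these relatives.

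The deposited table holds 1 FPKM value per gene and group (fragments per kilobase of transcript, scaled for library size), in which the authors pooled the samples of the group. No values per sample were used. The values below therefore have no error. No test was made, because the columns of the authors' own comparison in the same table were not used either. Whether a difference exceeds the variation between samples was not assessed. The number of reads behind each value is unknown. All directions rest on the group labels. FDL1 itself (GRMZM2G056407, chromosome 7, 167647343 to 167649332) had 12.7 FPKM in the group labelled fdl1-Mu and 4.58 FPKM in wild type, 2.78-fold higher in the group labelled as the mutant. A value for the whole gene does not show whether the transcript was interrupted, so it does not check the labels. The median log2 ratio of the 21364 expressed genes, those with at least 1 FPKM in either group and a value above 0 in both, was 0.02, and the summed FPKM of the whole table was 683348 in fdl1-Mu and 668888 in wild type. The tips were not sorted into cell types, and fewer epidermal cells cannot be told apart from less RNA of a gene per cell.

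The 6 genes did not differ in a common direction along the pathway. In the group labelled fdl1-Mu, the alcohol-branch gene ZmCER4 was 2.18-fold lower, ELO1 was 1.86-fold higher, and the paired alkane-branch genes went opposite ways, with ZmCER1 1.37-fold higher and ZmCER3 1.36-fold lower. ZmCER2 and ZmCER8 were lower, by 1.44-fold and 1.24-fold. Thus 2 genes were higher and 4 lower, with a median log2 ratio of -0.38. Among all expressed genes, 52.3% were higher and 47.7% lower.

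**Figure D1:**
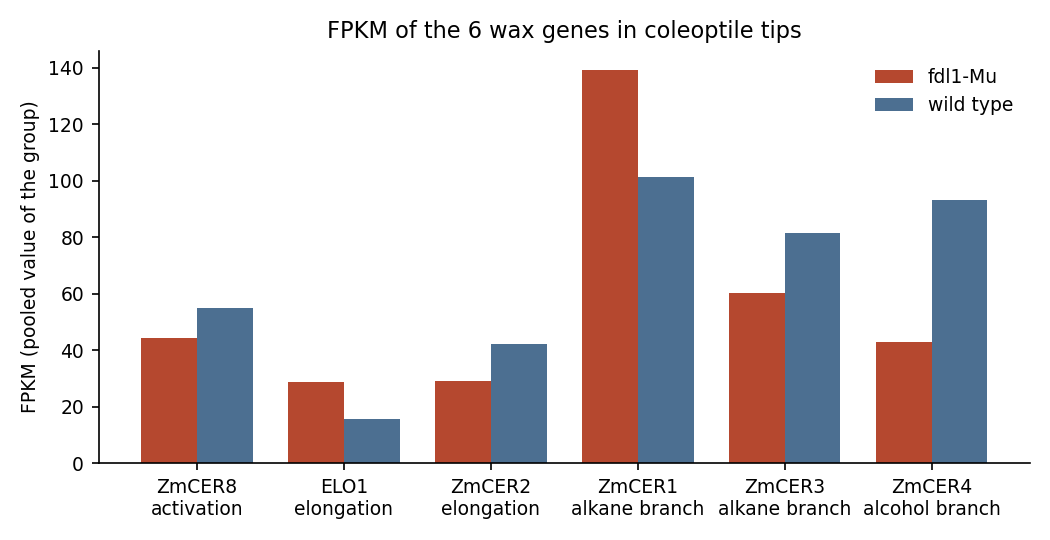
FPKM (vertical axis, linear, from 0) of the 6 genes in the fdl1-Mu group (red, left bar) and in wild type (blue, right bar), in pathway order. Each bar is the authors' pooled value of a group, with no error bar because values per sample were not used. ZmCER4 has the widest gap, with 42.7 in fdl1-Mu against 93.2 in wild type, and only ELO1 and ZmCER1 have the taller bar in fdl1-Mu.

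With a 1.5-fold difference as the limit, 1 of the 6 genes was higher (ELO1) and 1 lower (ZmCER4), where 11.7% of all expressed genes were higher by that much and 5.33% lower. With a lower limit of 0.32 on the log2 scale, 2 were higher and 3 lower, beside 22.4% and 16.1% of expressed genes, and only ZmCER8 was within that limit. At 2-fold, 0 were higher and 1 lower, beside 4.67% and 1.31% of expressed genes. Larger ratios are commoner among weakly expressed genes, and the 6 genes are all well expressed. Among the 10722 genes with at least 10 FPKM in both groups, a limit chosen after the values were seen, 5.14% were at least 1.5-fold higher and 1.89% at least 1.5-fold lower. Of these genes, 1.85% had a higher ratio than ELO1 and 8.25% a higher one than ZmCER1. Ratios below those of ZmCER4, ZmCER2, ZmCER3 and ZmCER8 were held by 0.121%, 2.90%, 5.17% and 12.1%. The shares given gene by gene below are of all expressed genes unless stated.

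**Figure D2:**
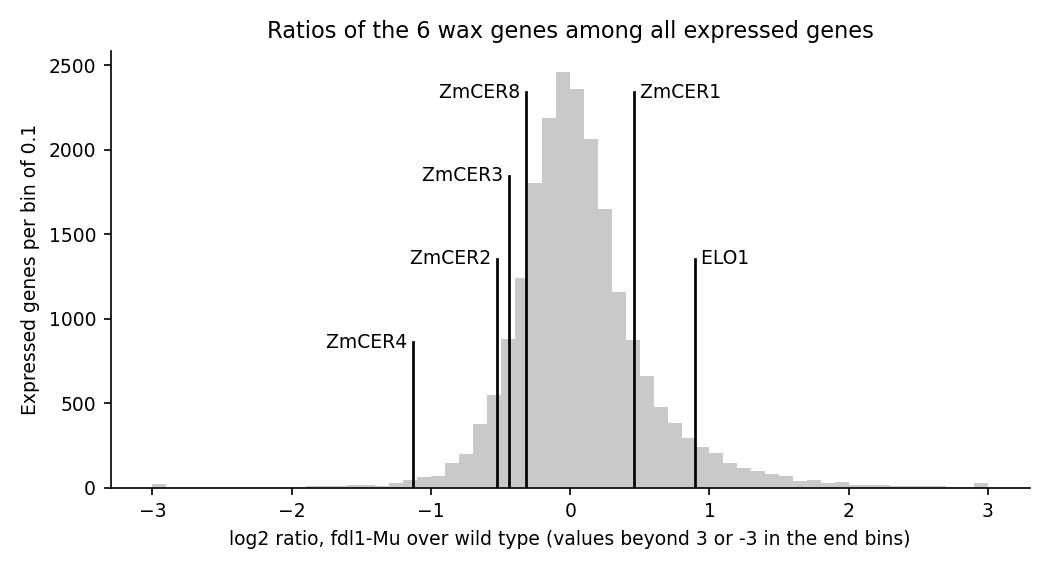
Number of expressed genes (vertical axis) in bins of 0.1 of the log2 ratio of fdl1-Mu over wild type (horizontal axis), with the 6 wax genes as vertical lines whose heights only serve the labels. ZmCER4, at -1.13, lies in the thin left edge of the distribution, ELO1, at 0.89, lies on its right slope, and the other 4 genes lie between -0.52 and 0.46.

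At the entry to the pathway, ZmCER8 (GRMZM2G101875, chromosome 10, 85201886 to 85207308) differed least. It had 44.3 FPKM in fdl1-Mu and 55.1 FPKM in wild type, a log2 ratio of -0.31. Of all expressed genes, 16.7% had a ratio below this, so that a difference of this size was common in the table. Its level among the 6 genes was the fourth in wild type and the third in fdl1-Mu, because ZmCER4 stood below it there.

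The elongation genes went opposite ways. ELO1 (GRMZM2G037152, chromosome 1, 264594942 to 264596049), the condensing-enzyme relative, had 28.8 FPKM in fdl1-Mu and 15.5 FPKM in wild type, a log2 ratio of 0.89 that 5.84% of expressed genes exceeded. ZmCER2 (GRMZM2G029912, chromosome 9, 106197769 to 106204349), the relative of the elongation factor CER2, had 29.2 FPKM in fdl1-Mu and 42.1 FPKM in wild type, a log2 ratio of -0.52, and 6.89% of expressed genes had a lower ratio. Both genes stood at nearly the same level in fdl1-Mu, with an ELO1 to ZmCER2 ratio of 0.986, against 0.369 in wild type. Their summed FPKM hid this, at 58.1 in fdl1-Mu and 57.6 in wild type. ELO1 was the least expressed of the 6 in both groups, just below ZmCER2 in fdl1-Mu.

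In the alkane branch, ZmCER1 (GRMZM2G075255, chromosome 5, 185743610 to 185749171) was the most expressed of the 6 genes in both groups. It had 139.1 FPKM in fdl1-Mu and 101.3 FPKM in wild type, a log2 ratio of 0.46, and 15.8% of expressed genes had a higher ratio. ZmCER3 (GRMZM2G083526, chromosome 5, 90378698 to 90384920), the relative of the partner protein of CER1, had 60.1 FPKM in fdl1-Mu and 81.6 FPKM in wild type, a log2 ratio of -0.44, and 9.77% of expressed genes had a lower ratio. Per transcript length, there was 2.31 times as much ZmCER1 as ZmCER3 RNA in fdl1-Mu and 1.24 times as much in wild type. The 2 genes thus differed by nearly equal folds in opposite directions. Their summed FPKM was 199.2 in fdl1-Mu and 183.0 in wild type, a ratio of 1.09, and says little about either gene alone.

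ZmCER4 (GRMZM2G036217, chromosome 4, 52923800 to 52927833), the relative of the alcohol-forming reductase, had 42.7 FPKM in fdl1-Mu and 93.2 FPKM in wild type. Its log2 ratio was -1.13, and 0.927% of all expressed genes, or 0.121% of those with at least 10 FPKM in both groups, had a lower ratio. It was the second most expressed of the 6 genes in wild type and the fourth in fdl1-Mu. Its difference, fdl1-Mu minus wild type, of -50.5 FPKM was also the widest of the 6, followed by that of ZmCER1, 37.7 FPKM.

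Set against each other, the genes of the branches stood further apart in fdl1-Mu. ZmCER4 alone stands for the alcohol branch here, so the branches as wholes were not compared. The summed FPKM of ZmCER1 and ZmCER3 was 4.66 times that of ZmCER4 in fdl1-Mu and 1.96 times that in wild type, a 2.38-fold difference. The alkane sum itself differed by the ratio of 1.09 given above, and ZmCER4 by 2.18-fold. Between single genes the difference was widest for ZmCER1 over ZmCER4, with a ratio of 3.25 in fdl1-Mu and 1.09 in wild type, and smaller for ZmCER3 over ZmCER4, with 1.41 in fdl1-Mu and 0.876 in wild type. These are ratios of transcript levels. The wax on these tips was not measured in the files used.

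**Figure D3:**
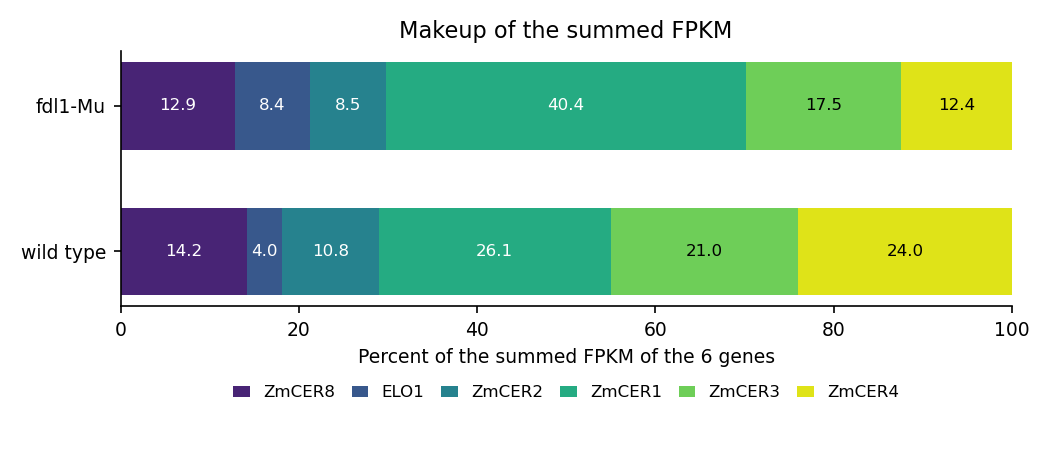
Share of each gene in the summed FPKM of the 6 genes (horizontal axis, percent), for fdl1-Mu above and wild type below, in pathway order. The printed numbers are percentages, and ZmCER1 takes 40.4% in fdl1-Mu against 26.1% in wild type, while ZmCER4 takes 12.4% in fdl1-Mu against 24.0% in wild type.

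The 6 genes together summed to 344.3 FPKM in fdl1-Mu and 388.9 FPKM in wild type, a ratio of 0.885. ELO1 made up 8.37% of the sum in fdl1-Mu and 3.99% in wild type. The shares of ZmCER8, 12.9% in fdl1-Mu and 14.2% in wild type, and of ZmCER2, 8.49% in fdl1-Mu and 10.8% in wild type, differed less. In wild type, ZmCER1, ZmCER4 and ZmCER3 formed a close group between 81.6 and 101.3 FPKM. In fdl1-Mu that group was gone, with ZmCER1 alone at 139.1 FPKM and the next gene, ZmCER3, at 60.1.

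Other genes of the pathway were taken from the names in the RefSeq annotation and from the identifiers that the study's text pairs with a wax enzyme. This gave 9 genes, 7 of them expressed, none for activation and none for the alcohol branch. A step left empty by this matching of names can still hold genes. For activation, the study reports several LACS genes of cutin synthesis as higher in fdl1-Mu, whereas ZmCER8 was lower. Of the 7 expressed genes of the list, ZmKCS15 was at least 1.5-fold higher and ZmKCS24 at least 1.5-fold lower in fdl1-Mu. Of all expressed genes, 11.7% and 5.33% were, so that the counts are too small to set the list apart. The 7 genes had a median log2 ratio of -0.01, beside the 0.02 of all expressed genes, which does not describe the pathway as a whole. ZmKCS15 (GRMZM2G160417) and ZmKCS24 (GRMZM2G003138) encode 3-ketoacyl-CoA synthases, the other class of condensing enzyme. ZmKCS15 had 11.4 FPKM in fdl1-Mu and 7.16 FPKM in wild type, a log2 ratio of 0.67 in the direction of ELO1. The study reports ZmKCS15 as the exception in its family, with the other changed family members all lower. Most of those lower genes are not in this list, so the list does not show the balance of the family. ZmKCS24 had 0.775 FPKM in fdl1-Mu and 5.60 FPKM in wild type. The most expressed condensing enzyme of the list, ZmKCS8 (GRMZM2G162508), had 53.2 FPKM in fdl1-Mu and 53.5 FPKM in wild type, a level above that of ELO1 in both groups. AD1 (GRMZM2G167438), a further 3-ketoacyl-CoA synthase, had a log2 ratio of -0.13.

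The expressed relatives of ZmCER2 and ZmCER1 in this list differed less than the 2 genes themselves. The gene that RefSeq names glossy2 (GRMZM2G098239), a CER2 relative known from a glossy-leaf mutant of maize, had 90.6 FPKM in fdl1-Mu and 76.6 FPKM in wild type, a log2 ratio of 0.24 where ZmCER2 had -0.52. It was expressed above ZmCER2 in both groups. The study's text joins the names GLOSSY2 and ZmCER2, whereas the identifier it shows as ZmCER2 and the one that RefSeq names glossy2 are separate genes of the table. RefSeq gives the synonym CER1 to 2 other genes and not to GRMZM2G075255. Of these, GRMZM2G099097 had 18.7 FPKM in fdl1-Mu and 22.0 FPKM in wild type, a log2 ratio of -0.23 where ZmCER1 had 0.46, and GRMZM2G066578 was below 1 FPKM in both groups. The alkane-branch gene gl1 (GRMZM2G114642), the glossy1 gene, had 0.208 FPKM in fdl1-Mu and 0.492 FPKM in wild type and was not counted as expressed. The gene gl8b (GRMZM2G087323), for the reductase that follows condensation in each elongation cycle, had 23.9 FPKM in fdl1-Mu and 23.8 FPKM in wild type. How reads were divided between such relatives is not given in the sources used here.

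**Figure D4:**
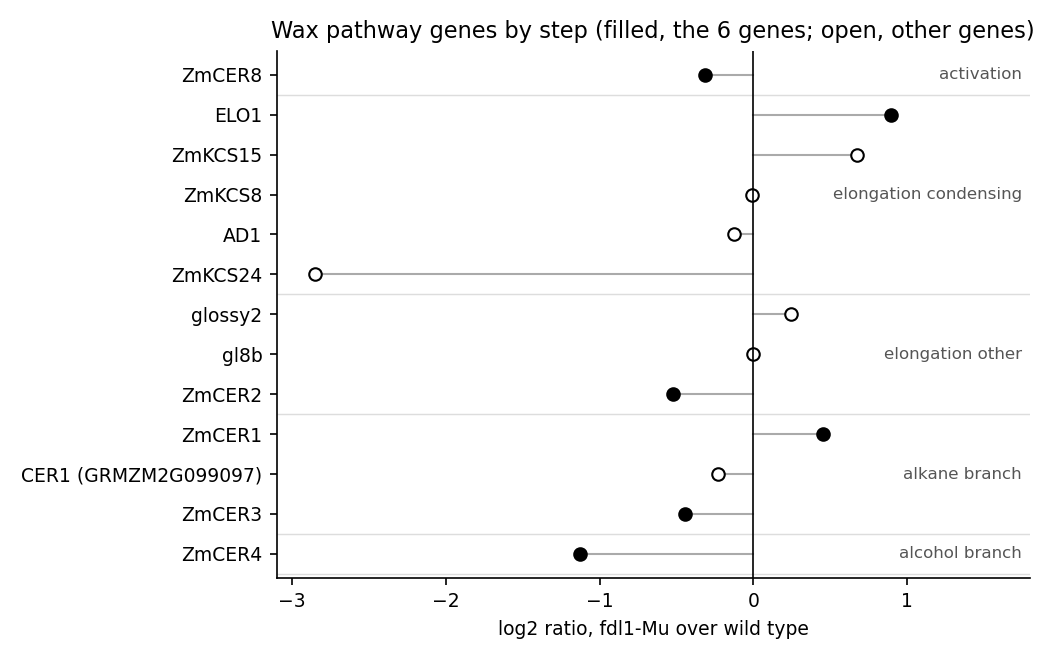
Log2 ratio of fdl1-Mu over wild type (horizontal axis) for the 6 genes (filled) and the 7 other expressed genes of the list (open), 1 gene per line, grouped by step from activation down to the alcohol branch. Within each of the elongation and alkane steps, genes lie on both sides of 0, from ZmKCS24 at -2.85 to ELO1 at 0.89.

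By level in both groups, the gene of the list nearest to ZmCER8 was ZmKCS8, at a distance of 0.27 in log2 FPKM over the 2 values. ZmCER3 and ZmCER4 were nearest to each other, at 0.53, and the other nearest pairs were ELO1 with gl8b at 0.68, ZmCER2 with ZmCER8 at 0.72 and ZmCER1 with glossy2 at 0.74. With 2 values per gene, such a distance reflects mostly the level. The loci are coordinates of the B73v3 genome and span exons and introns. None of the 6 loci overlaps another locus of the table. ZmCER1 and ZmCER3 lie on the same chromosome, and the other 4 genes lie on 4 others.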

How the data were processed

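Per the labels and the methods of the study, stranded mRNA libraries were sequenced, with Trimmomatic and TopHat2 (2.1.1) among the tools of the submitters' processing notes, and reads were mapped to B73v3. The authors used Cuffdiff to make the deposited FPKM values, 1 per gene and group. The Cuffdiff version, options and annotation, and whether strand entered the counting, are not given in the sources used here. W22 reads were thus mapped to another inbred's genome. The columns of the authors' own comparison (fold change, test statistic, p-value, q-value, significance) were not used.

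Log2 ratios of fdl1-Mu over wild type were computed without a pseudocount (Python 3.11.15, numpy 2.4.6, pandas 2.3.3, matplotlib 3.10.9). Expressed genes had at least 1 FPKM in either group and a value above 0 in both. A 1.5-fold ratio was the limit for counts, which are descriptions, not tests. Locus starts were raised by 1. Steps of whole reads were looked for in low values of 1723 genes, where the fullest of 60 bins of their ratios held 5.05%. Ratios of pooled values can blur such steps, so this check cannot decide, and depth is unknown. The counting code was tested on simulated data. RefSeq names of Zm-B73-REFERENCE-NAM-5.0 were matched by synonym. They covered 5 of the 6 genes and 70.0% of expressed genes, and no coordinates were taken from that assembly. Other pathway genes were named per step by highest mean FPKM and, with at least 1 FPKM in both groups, by largest absolute log2 ratio, and as nearest to a wax gene by log2 FPKM in both groups. ZmKCS24, AD1, gl1 and the CER1 gene GRMZM2G066578 were named after their values were seen. The 6 genes, the lists and the limits were chosen with earlier results of these data known. Alternatives were pseudocounts, other folds, other FPKM minimums, centring on the median gene, scaling each group to a total of 1000000, and a wider alkane-branch list.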

Additional observations from a re-analysis of the deposited data

How the results depend on the processing

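The log2 ratios of the 6 genes kept their direction in all 24 recalculations (pseudocounts of 0.1 and 1, centring on the median gene, and scaling to a common total) and moved by at most 0.04. The counts followed the fold chosen. With a log2 limit of 0.32, 2 of the 6 genes were higher and 3 lower, and at 2-fold 0 were higher, with ZmCER4 still lower. The share of expressed genes past the limit was 22.4% higher and 16.1% lower at that limit, 4.67% and 1.31% at 2-fold, 5.14% and 1.89% with at least 10 FPKM in both groups, and 10.1% lower with any value above 0 in both groups. The other limits for this share and the minimum of 10 FPKM were chosen after seeing the data. With at least 1 FPKM in both groups, 0 other pathway genes were 1.5-fold lower, because ZmKCS24 then drops out. With GRMZM2G099097 added, the expressed gene with the RefSeq synonym CER1, the alkane sum was 5.10 times the ZmCER4 value in fdl1-Mu. In wild type it was 2.20 times that value, and the difference between groups was 2.32-fold. No alcohol-branch gene was there to add. Leaving out replicates was not run, and no paired analysis was possible because the columns hold 1 pooled value per group. The missing depth and spread limit every ratio here.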

Other observations

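The nearest expressed gene on each side of each of the 6 wax genes was read from the table, a check chosen after seeing the data. These 12 neighbours lay 1508 to 477075 bases away. Their log2 ratios of fdl1-Mu over wild type ran from -0.58 to 0.47 with a median of 0.04, and 0 of the 12 were at least 1.5-fold higher or lower, where 11.7% and 5.33% of all expressed genes were, shares that leave little to read from 12 genes. The ratio had the sign of the wax gene beside it in 4 of 12, where 52.3% of all expressed genes were higher and 47.7% lower. ZmCER4, with a log2 ratio of -1.13, lay between genes with 0.47 and 0.13, and ELO1, with 0.89, between genes with -0.38 and -0.20.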
